A study of Homo sapiens with 6 samples.

Results

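The interferon response and the sensing of RNA in the cytosol and endosome were followed through 44 genes in A549 cells, a line long kept in culture from a human lung adenocarcinoma. The genes were listed by name, with no threshold on measured values but with earlier results of these data known, and fall into 7 sensors and adaptors, 12 signalling factors and 25 interferon-stimulated genes. An identifier was found for 43 of the 44 among the 57905 in the deposited table, and IKBKE was the member without one. Of the 43, 36 had a mean of at least 1 FPKM (fragments scaled to gene length and library size) over the 6 samples and were tested, and 7 lay under that level. Cells had been transfected with miR-19a (3 samples) or with the negative control microRNA miR-NC (3 samples), each at 25 nM with a Lipofectamine reagent, and the harvest time is given as 24 h. Poly(A) RNA was then sequenced. All samples had received a transfected RNA, and cells without one were not analysed here. Nothing states that replicate samples came from separate cultures, and each p-value therefore rests on a spread between samples that may be technical only.

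Cells sense foreign RNA with helicases of the cytosol and with Toll-like receptors of the endosome. RIG-I (gene RIGI) and MDA5 (IFIH1) signal through the mitochondrial adaptor MAVS, whereas TLR3 signals through TICAM1. Both routes reach kinases such as TBK1, which activate IRF3 and IRF7 and so the genes of interferon beta and the interferon lambdas. Secreted interferon binds receptors coupled to the kinases JAK1 and TYK2, and a complex that holds STAT2 and IRF9 then turns on interferon-stimulated genes, many of them antiviral. RIGI, IFIH1 and STAT2 are themselves induced by interferon, so the pathway feeds back on its own sensors. Airway epithelial cells are known to answer viral RNA mainly with interferon lambda.

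Total counts over genes lay between 15699037 and 17957932 per library. Mature microRNAs are not read in a poly(A) library, so the transfected RNA itself was not measured. The epithelial identity of the cells was visible in keratins KRT8 (3186, 3160.5 and 3277 CPM, counts scaled to library size, in miR-19a and 2688, 2692 and 2567 CPM in miR-NC) and KRT18, while EPCAM was low (1.99, 1.47 and 2.37 CPM in miR-19a and 1.69, 1.94 and 0.954 CPM in miR-NC). Among leukocyte markers CD3E, MS4A1 and NKG7 had 0 counts in every library, and the 9 leukocyte markers summed to 2.98 to 3.78 CPM in miR-19a and 2.29 to 2.87 CPM in miR-NC, most of it CD14, which was higher in miR-19a (edgeR adjusted p = 0.025). The 9 fibroblast markers summed to 27.9 to 33.0 CPM in miR-19a and 13.5 to 16.2 CPM in miR-NC, with POSTN at 0 in every library and COL1A1 as the main part (25.3, 23.98 and 27.5 CPM in miR-19a and 8.98, 9.93 and 7.89 CPM in miR-NC). The 12 epithelial markers summed to 19220 to 19664 CPM in miR-19a and 21230 to 21636 CPM in miR-NC, and the 5 endothelial markers to at most 0.452 CPM in any library. ALDH3A1, an aldehyde dehydrogenase in the epithelial list, averaged 1446 ± 78.8 CPM in miR-19a and 3514 ± 82.9 CPM in miR-NC (SD, n = 3 each). Of 11 tested epithelial markers 3 were higher in miR-19a (KRT8, KRT18 and KRT19). The 5 lower ones included keratin KRT7 (log2 fold change -0.28, edgeR adjusted p = 9.1e-10). The fibroblast, leukocyte and epithelial sums each differed without overlap between the groups, and their part in the results was not tested.

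The sequence of the microRNA and of its matches in 3′ UTRs of pathway genes is shown because a transcript with such a match can be lowered by pairing with the microRNA. The labels name miR-19a without the arm of the hairpin, and the 3p arm is shown from RefSeq (GRCh38.p14, chr13:91350939-91350961, plus strand), with the seed, bases 2 to 8, in capitals. Matches were searched in GENCODE 29 transcripts on GRCh38 as TTTGCACA (8mer), TTTGCAC (7mer-m8), TTGCACA (7mer-A1) and TTGCAC (6mer), on the transcript strand only, and a shorter form inside a longer one was not counted again. The lines give the match in capitals within its 3′ UTR.
hsa-miR-19a-3p: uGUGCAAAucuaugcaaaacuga
UNC93B1: tgtgagcgcacTTTGCACctcctatcccc
EIF2AK2: ctcaacaggctTTTGCACtcagtggctct
MAVS: tggctaattttTTTGCACttttagtagag
TBK1: aaaagtttccgTTTGCACAagaaaataacg
PRKRA: ttaagctcttcTTTGCACAaagctttataa
CGAS: tgttcatatatTTTGCACAttttcttatgg

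The UNC93B1 match lies at chr11:67991177-67991183 on the minus strand, the EIF2AK2 match at chr2:37100189-37100195 on the minus strand and the TBK1 match at chr12:64501413-64501420 on the plus strand, each in an exon of the 3′ UTR. MAVS has the match shown at chr20:3869344-3869350 and a second 7mer-m8 at chr20:3872830-3872836, both on the plus strand. PRKRA (chr2:178431745-178431752) and CGAS (chr6:73423965-73423972), both on minus strands, belong to the wider pathway described further on, and both fell. The lines do not show every match of that wider pathway. PDIA3 (8mer, log2 fold change 0.21) and ERAP1 (7mer-A1, 0.36) have matches that are not shown, and both rose. Of the 36 tested members, 4 (11.1%) held a 7mer or 8mer, against 18.6% of the 10460 tested genes with a 3′ UTR. Of these 4, UNC93B1 and EIF2AK2 fell, and MAVS and TBK1 did not pass the threshold. Among all 1946 tested genes with a 7mer or 8mer, 768 were lower and 426 higher. Of the 7548 tested genes with a 3′ UTR but no match of any form, 1611 were lower and 2228 higher. The remaining tested members had a 6mer (IRF1 and IFIT2) or no match. Among members under the level filter, IFI44L held an 8mer and IFITM1 a 7mer-m8. A match in these letters is a description of the sequence and does not show that the microRNA binds there.

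The set did not move as a block. In miR-19a samples 10 members were higher and 12 lower than in miR-NC samples, out of 36 tested, at an adjusted p under 0.05 in edgeR's quasi-likelihood test. Among all 12452 tested genes 24.9% were called higher and 23.5% lower, 48.4% in all, so a large share of any list is called in this comparison. The 22 called members are 61.1% of those tested, and no test of the list was made. Over the 36 tested members, called or not, the median log2 fold change was -0.02, against -0.0045 over all tested genes. The median size of change without sign was 0.18 for the tested members and 0.18 for all genes. A change of at least 0.5 on the log2 scale was reached by 5 called members, UNC93B1, IFNAR1, RSAD2, IFITM2 and IFITM3, which is 5 of 36 against 11.7% of all tested genes. The samples of the groups did not overlap for 24 members, 66.7%, against 54.0% of all tested genes. In bulk RNA fewer cells carrying a transcript and fewer copies in each cell cannot be told apart.

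**Figure D1:**
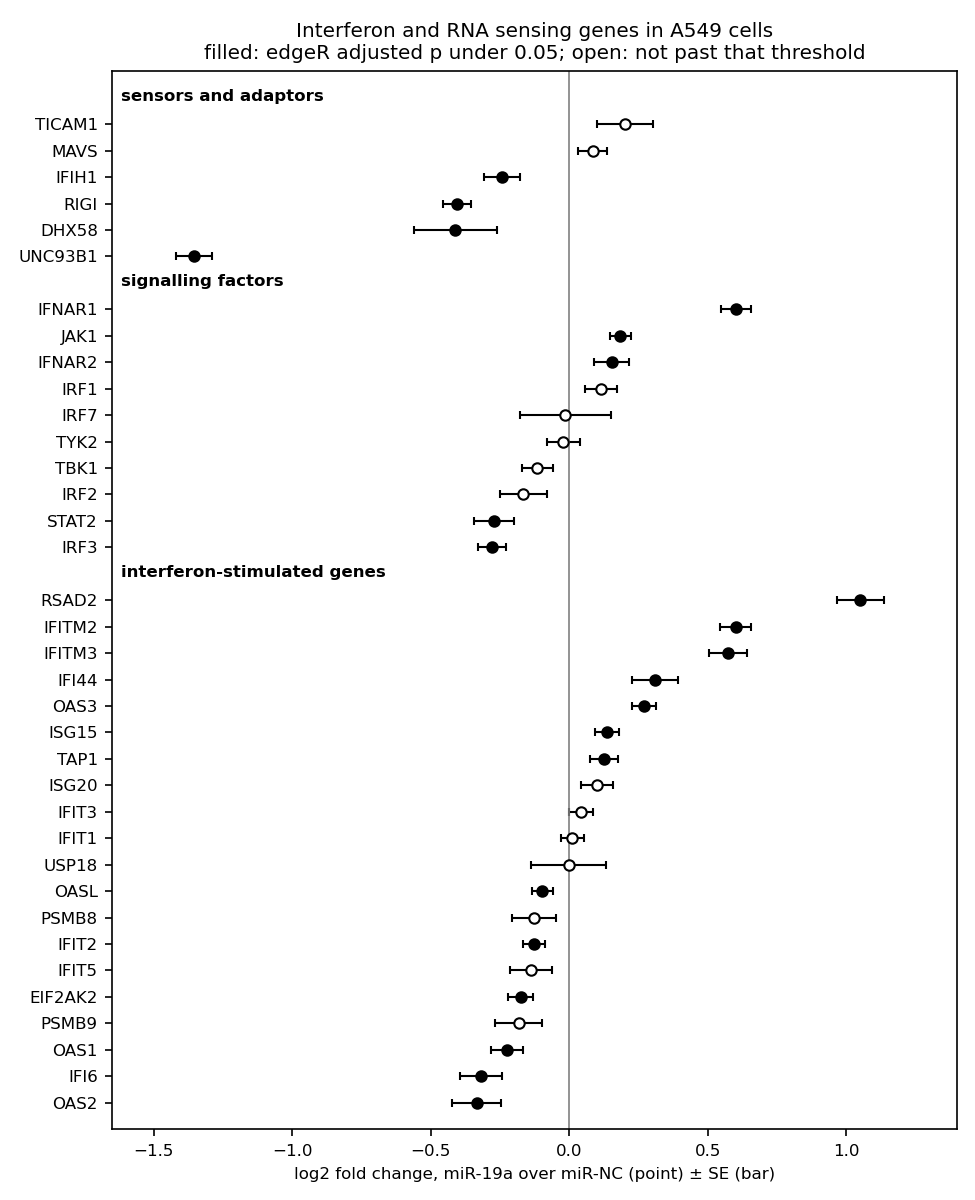
The log2 fold change (miR-19a over miR-NC, horizontal axis) of the 36 tested members is shown by role, with bars for the standard error and filled points for an edgeR adjusted p under 0.05. UNC93B1 at -1.36 and RSAD2 at 1.05 lie farthest from 0, and within the interferon-stimulated genes 7 filled points lie right of 0 and 6 left of it.

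Levels per length spanned a wide range. On the FPKM scale ISG15, a ubiquitin-like protein, was the most abundant member at 256 ± 15.3 FPKM in miR-19a and 235 ± 17.3 FPKM in miR-NC (mean ± SD, n = 3 each). OASL came next at 99.3 ± 3.53 and 107 ± 1.81 FPKM in miR-19a and miR-NC. IFIT3 followed at 55.1 ± 2.405 and 54.1 ± 2.68 FPKM and IFIT1 at 52.7 ± 2.78 and 52.8 ± 1.84 FPKM in the same groups. IFIT2 (47.1 ± 0.976 FPKM in miR-19a and 52.02 ± 1.71 FPKM in miR-NC) lay under IFITM2 (49.9 ± 0.532 FPKM) and JAK1 (49.7 ± 1.61 FPKM) in miR-19a and above both in miR-NC (33.2 ± 0.235 FPKM for IFITM2 and 44.2 ± 0.807 FPKM for JAK1). The sample ranges of IFIT3 and IFIT1 are close, and no test was made between genes. At the other end IFI44L averaged 0.0167 FPKM in miR-19a and 0.04 FPKM in miR-NC, and TLR3 0.173 and 0.187 FPKM in the same groups.

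**Figure D2:**
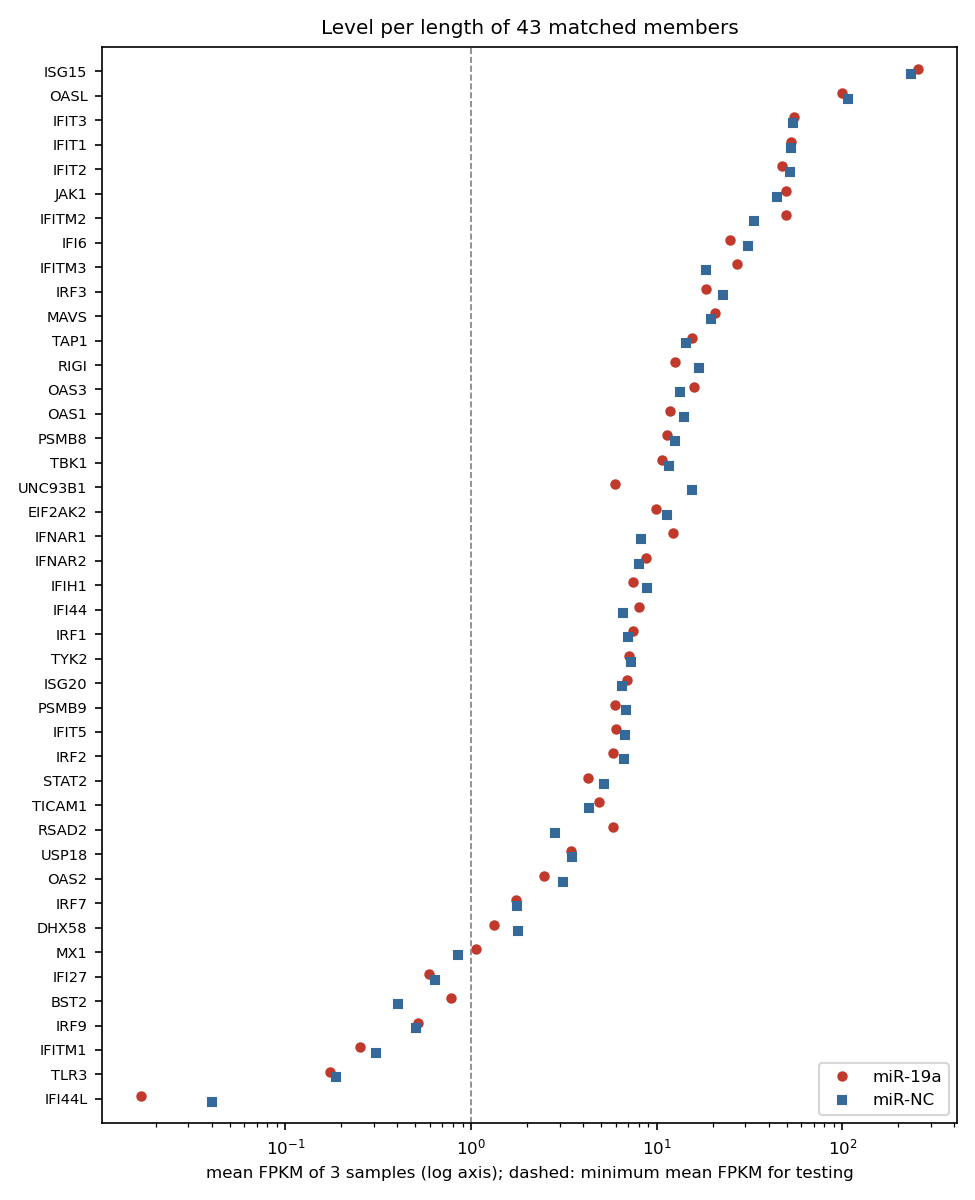
Mean FPKM of 3 samples (log axis) is plotted for the 43 members with an identifier, miR-19a as circles and miR-NC as squares, in order of the mean over all samples. ISG15 and OASL stand at the top in both groups, followed by IFIT3 and IFIT1, UNC93B1 shows the widest gap among tested members, and 7 members have a mean over all samples under the dashed line at 1 FPKM.

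Among the sensors and adaptors 4 of 6 tested members fell and 0 rose. Of all tested genes 23.5% were lower and 24.9% higher. The members that fell were the helicases RIGI, IFIH1 and DHX58 and the chaperone UNC93B1, which brings Toll-like receptors to the endosome. UNC93B1 had 20.8, 20.1 and 21.3 CPM in the miR-19a samples, against 54.5, 52.9 and 51.7 CPM in the miR-NC samples. Its level in each miR-19a sample was under that in every miR-NC sample, with a log2 fold change of -1.36 (SE 0.066, edgeR adjusted p = 6.7e-28). UNC93B1 carries a 7mer-m8 and has close pseudogene copies, with which reads may be shared.

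RIGI, which detects short RNA with a triphosphate end, had 62.7, 68.9 and 68.3 CPM in miR-19a and 86.3, 91.9 and 86.6 CPM in miR-NC. IFIH1, the sensor of long duplex RNA, had 34.2, 33.6 and 34.1 CPM in miR-19a and 37.3, 42.2 and 41.3 CPM in miR-NC. The samples of the groups did not overlap for either sensor, with log2 fold changes of -0.40 (SE 0.051, edgeR adjusted p = 3.4e-10) and -0.24 (SE 0.064, edgeR adjusted p = 0.00103). Neither has a match to the miR-19a seed in the 3′ UTR used. DHX58, or LGP2, a related helicase that tunes the other sensors, was scarcer, with 5.47, 4.59 and 5.54 CPM in miR-19a and 8.07, 6.12 and 6.55 CPM in miR-NC. Its samples did not overlap, and its fold change of -0.41 (SE 0.15) passed at an edgeR adjusted p of 0.0183. That call ended with DESeq2 (adjusted p = 0.0565), with limma at either pseudocount (0.0566 and 0.0591), without miR-19a replicate 2 (-0.33, edgeR adjusted p = 0.105) and without miR-NC replicate 1 (-0.28, edgeR adjusted p = 0.176).

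The adaptors gave no call. MAVS, on the mitochondrial outer membrane, had 84.4, 85.5 and 96.02 CPM in miR-19a and 82.4, 90.6 and 77.8 CPM in miR-NC, which overlap (0.08, SE 0.052, edgeR adjusted p = 0.176). Without miR-NC replicate 2 its change was 0.15 and passed at an edgeR adjusted p of 0.0146, while over the 14 alternatives its adjusted p ranged from 0.0146 to 0.773. TICAM1, the adaptor of TLR3, had 13.1, 12.5 and 14.2 CPM in miR-19a and 11.6, 12.2 and 10.9 CPM in miR-NC. Its samples did not overlap, yet it did not pass (0.20, SE 0.10, edgeR adjusted p = 0.0998).

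Among the signalling factors 3 of 10 tested members rose and 2 fell (50% called, against 48.4% of all tested genes). The receptor subunits and JAK1 were higher, while IRF3 and STAT2 were lower. IFNAR1, the subunit of the type I interferon receptor bound to TYK2, had 82.8, 79.4 and 75.2 CPM in miR-19a and 50.9, 55.4 and 49.9 CPM in miR-NC. Every miR-19a sample lay above every miR-NC sample, and the mean was 1.52-fold that of miR-NC (log2 0.60, SE 0.054, edgeR adjusted p = 2.7e-15). IFNAR2, the subunit bound to JAK1, differed less, with 43.8, 41. and 38.6 CPM in miR-19a and 37.1, 37.8 and 36.1 CPM in miR-NC. The groups did not overlap, but the call for IFNAR2 (0.15, SE 0.063, edgeR adjusted p = 0.039) was near the threshold. It ended with library totals (0.0664), DESeq2 (0.0990), limma (0.0852 and 0.0841) and no filter (0.0617), and without miR-19a replicate 1 (0.11, edgeR adjusted p = 0.242) or replicate 2 (0.15, 0.0789) and without miR-NC replicate 1 (0.15, 0.0791) or replicate 3 (0.13, 0.112).

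JAK1, the kinase shared by several interferon receptors, had 313, 330.0 and 312 CPM in miR-19a and 275, 282 and 284 CPM in miR-NC. These groups did not overlap, at a log2 fold change of 0.18 (SE 0.038, edgeR adjusted p = 3.4e-05). TYK2, its partner, had 46.8, 46.5 and 49.99 CPM in miR-19a and 50.3, 50.3 and 44.8 CPM in miR-NC, which overlap, and did not pass (-0.02, SE 0.059, edgeR adjusted p = 0.792). JAK1 exons overlap those of RAVER2 on the other strand, and it is not stated whether the counting used the strand. RAVER2 had a mean of 249.0 counts per library, against 4950.5 for JAK1.

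IRF3, the factor that TBK1 phosphorylates to start interferon transcription, had 67.8, 70.3 and 75.1 CPM in miR-19a and 89.5, 83.7 and 85.7 CPM in miR-NC. No miR-19a sample reached the lowest miR-NC sample (-0.28, SE 0.050, edgeR adjusted p = 3.2e-06). IRF3 shares exon positions with BCL2L12 on the other strand, which had a mean of 527.2 counts against 1297.8 for IRF3 and was also lower (-0.24, edgeR adjusted p = 0.00367). STAT2, the activating part of the complex that interferon forms, had 26.7, 28.9 and 23.9 CPM in miR-19a and 30.4, 33.2 and 32.4 CPM in miR-NC, again without overlap (-0.27, SE 0.072, edgeR adjusted p = 0.00111).

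The other 4 tested signalling factors beside TYK2 did not pass. TBK1, with an 8mer match near the start of its 3′ UTR, had 51.5, 51.1 and 51.5 CPM in miR-19a and 55.5, 54.7 and 56.7 CPM in miR-NC. Its samples did not overlap, but its change of -0.12 (SE 0.055) had an edgeR adjusted p of 0.0772, which became 0.0423 with library totals alone and 0.0273 and 0.0272 with limma, within a range of 0.0272 to 0.217 over the alternatives. IRF1, an activator of many interferon-stimulated genes, stood at 0.12 (SE 0.058) with overlapping samples (edgeR adjusted p = 0.0959). It passed without miR-19a replicate 2 (0.17, edgeR adjusted p = 0.0267) and without miR-NC replicate 2 (0.18, edgeR adjusted p = 0.00977), and its adjusted p ranged from 0.00977 to 0.437. IRF2, which competes with IRF1 at the same DNA sites, stood at -0.17 (SE 0.085, edgeR adjusted p = 0.0984) and passed without miR-NC replicate 2 (-0.24, edgeR adjusted p = 0.0210, of a range up to 0.395). IRF7, known as the amplifier of interferon production, was scarce, with 4.63 ± 0.349 CPM in miR-19a and 4.67 ± 0.479 CPM in miR-NC (SD, n = 3 each), which overlap (-0.01, SE 0.17, edgeR adjusted p = 0.955).

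Interferon-stimulated genes went both ways: 7 of 20 tested members rose and 6 fell, with a median log2 fold change of 0.0042. In all 65% were called, against 48.4% of all tested genes. The largest rise was that of RSAD2, or viperin, an enzyme that makes a chain-terminating nucleotide against viral polymerases. RSAD2 had 29.03, 29.04 and 27.6 CPM in miR-19a and 12.2, 15.3 and 13.9 CPM in miR-NC. The lowest miR-19a sample was well above the highest miR-NC sample, and the mean was 2.07-fold that of miR-NC (log2 1.05, SE 0.084, edgeR adjusted p = 2.0e-17). RSAD2 exons overlap those of CMPK2 on the opposite strand, a gene with 121.8 counts on average against 352.2 for RSAD2 and no call (-0.22, edgeR adjusted p = 0.188).

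Of the interferon-induced transmembrane proteins, which hinder the entry of viruses, IFITM2 and IFITM3 rose. IFITM2 had 66.5, 66.4 and 65.3 CPM in miR-19a and 43.9, 43.9 and 43.1 CPM in miR-NC, and IFITM3 had 35.9, 37.9 and 37.3 CPM in miR-19a and 25.3, 23.9 and 25.5 CPM in miR-NC. For each of them the samples within a group were close together and the groups were far apart, with changes of 0.60 (SE 0.055, edgeR adjusted p = 6.9e-15) and 0.57 (SE 0.068, edgeR adjusted p = 7.4e-11). These genes are near-identical neighbours on chromosome 11, and reads may have been split between them. IFITM2 exons also overlap those of IFITM1 on the same strand, with a mean of 910.2 counts for IFITM2 and 5.0 for IFITM1.

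IFI44, an interferon-induced cytosolic protein, rose with 21.6, 22.5 and 24.2 CPM in miR-19a and 20.4, 16.7 and 18.1 CPM in miR-NC (0.31, SE 0.083, edgeR adjusted p = 0.00132). ISG15 had 188, 172 and 193 CPM in miR-19a and 170.0, 155 and 178 CPM in miR-NC. Here the samples overlapped, and the rise of 0.14 (SE 0.044, edgeR adjusted p = 0.00812) was lost with limma (0.167 at either pseudocount) and without miR-19a replicate 1 (0.12, edgeR adjusted p = 0.0575), miR-19a replicate 3 (0.10, 0.0870) or miR-NC replicate 2 (0.08, 0.0968). TAP1, which carries peptides into the endoplasmic reticulum for class I antigen presentation, had 72.05, 79.2 and 72.8 CPM in miR-19a and 65.96, 69.96 and 69.6 CPM in miR-NC. The groups did not overlap, but its rise of 0.12 (SE 0.052, edgeR adjusted p = 0.0392) was lost with library totals (0.0759), DESeq2 (0.0910), limma (0.123 and 0.125) and no filter (0.0544), and without miR-19a replicate 2 (0.08, edgeR adjusted p = 0.288) or miR-NC replicate 1 (0.10, 0.187).

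The oligoadenylate synthetases make a small messenger of the antiviral response, and they split by member. OAS3 had 128, 135 and 137 CPM in miR-19a and 111, 112 and 109 CPM in miR-NC and rose without overlap (0.27, SE 0.044, edgeR adjusted p = 3.3e-07). OAS1 had 45.6, 44.7 and 50.3 CPM in miR-19a and 55.8, 57.3 and 51.3 CPM in miR-NC and fell (-0.22, SE 0.059, edgeR adjusted p = 0.00101). OAS2 had 17.03, 15.2 and 14.7 CPM in miR-19a and 20.5, 20.4 and 18.2 CPM in miR-NC and fell as well (-0.33, SE 0.088, edgeR adjusted p = 0.00107). All 3 genes lie side by side on chromosome 12, at chr12:112906777-112933222 (OAS1), chr12:112938352-112973249 (OAS3) and chr12:112978395-113011723 (OAS2) on the plus strand of GRCh38. OASL, a relative without synthase activity that aids RIG-I, had 240.4, 225 and 239.9 CPM in miR-19a and 257, 250.5 and 248 CPM in miR-NC. Its fall of -0.10 (SE 0.039, edgeR adjusted p = 0.0315) was lost with no filter (0.0920), without miR-19a replicate 2 (-0.07, edgeR adjusted p = 0.213) and without miR-NC replicate 1 (-0.08, 0.133). The splitting of the OAS genes held for OAS1, OAS2 and OAS3 under all 14 alternatives.

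The other falls were small. EIF2AK2, or PKR, a kinase that stops translation on binding duplex RNA, had 104, 115 and 105 CPM in miR-19a and 120.4, 123 and 123 CPM in miR-NC (-0.18, SE 0.045, edgeR adjusted p = 0.000757). Its 3′ UTR of 8063 bases holds the 7mer-m8 shown, a 7mer-A1 at chr2:37104817-37104823 and 2 6mers at chr2:37103247-37103252 and chr2:37101925-37101930. GPATCH11, which overlaps it on the other strand with 430.7 counts against 1901.2 for EIF2AK2, moved the other way (0.44, edgeR adjusted p = 1.04e-06). IFI6, a small interferon-induced membrane protein, had 23.2, 21.6 and 20.1 CPM in miR-19a and 26.02, 27.5 and 27.4 CPM in miR-NC (-0.32, SE 0.076, edgeR adjusted p = 0.000302). For both genes the groups did not overlap.

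IFIT proteins bind viral RNA or its translation machinery, and 1 of the 4 passed the threshold. IFIT2 had 170.4, 166 and 164 CPM in miR-19a and 184, 176 and 186 CPM in miR-NC, without overlap (-0.13, SE 0.040, edgeR adjusted p = 0.00607). Its exons overlap those of LIPA on the other strand, a gene with 2008.8 counts against 2874.3 that rose (0.59, edgeR adjusted p = 3.17e-18). IFIT1 stood at 0.01 (95% interval -0.07 to 0.09), IFIT3 at 0.04 (-0.04 to 0.13) and IFIT5 at -0.14 (-0.28 to 0.01). None of these 3 passed, and the sign for IFIT1 turned with library totals and with limma.

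Further members without a call were ISG20, an RNA exonuclease, at 0.10 (SE 0.058, edgeR adjusted p = 0.159) and USP18, a protease that removes ISG15 and restrains the receptor, at -0.0028 (SE 0.13). USP18 averaged 7.49 ± 1.01 CPM in miR-19a and 7.49 ± 0.598 CPM in miR-NC (SD, n = 3 each), and it has near-identical copies elsewhere in the genome. PSMB8 and PSMB9, catalytic subunits of the immunoproteasome, stood at -0.13 (SE 0.080, edgeR adjusted p = 0.188) and -0.18 (SE 0.084, edgeR adjusted p = 0.0638). PSMB9 passed with library totals (0.0433), without miR-19a replicate 3 (-0.22, edgeR adjusted p = 0.0478) and without miR-NC replicate 2 (-0.25, edgeR adjusted p = 0.0164), within a range of 0.0164 to 0.316. PSMB8 and PSMB9 overlap each other on opposite strands.

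**Figure D3:**
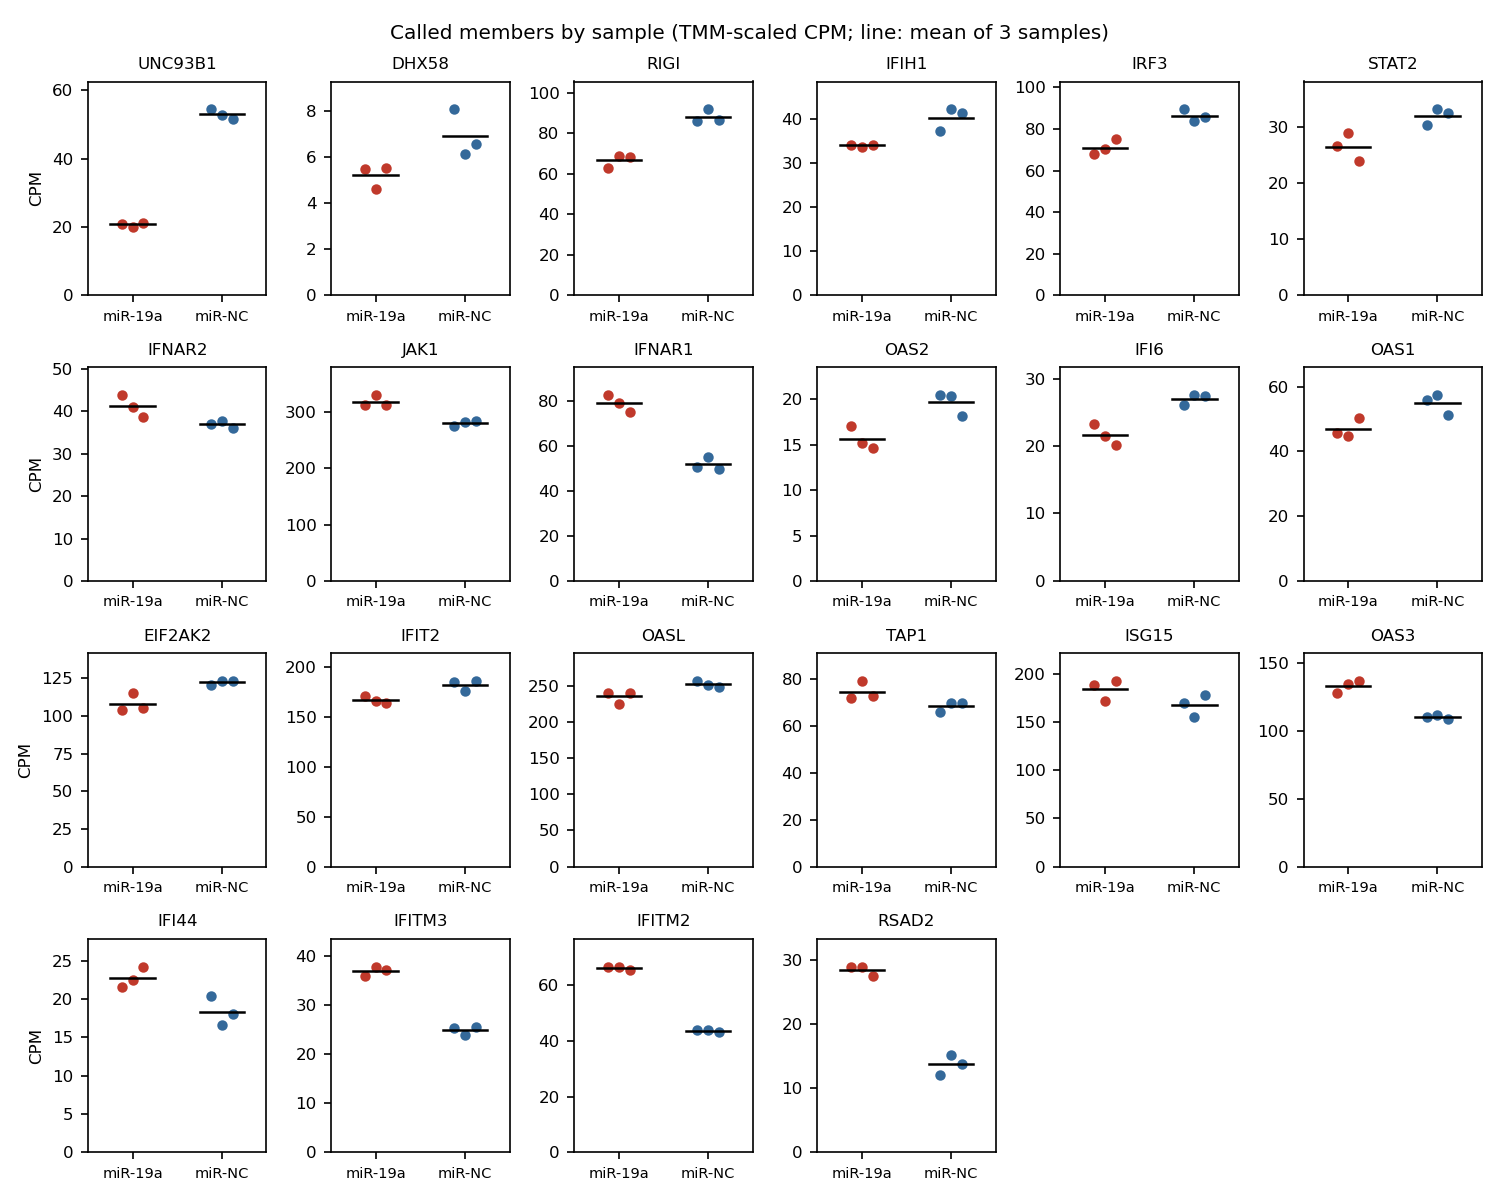
Each panel shows the TMM-scaled CPM of a called member in the 3 miR-19a and the 3 miR-NC samples, with a line at the mean and axes starting at 0. The groups are apart in every panel except that of ISG15, where the lowest miR-19a sample (172 CPM) is under the highest miR-NC sample (178 CPM).

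The 7 members under the level filter are given as counts. MX1, a dynamin-like antiviral GTPase, just missed the filter with a mean of 0.957 FPKM. It had 138, 159 and 176 counts in miR-19a and 123, 123 and 108 counts in miR-NC. The groups did not overlap, and with edgeR's filterByExpr, under which 43.7% of 15159 genes were called, MX1 was higher by 0.35 (adjusted p = 0.0169). BST2, or tetherin, had 12, 16 and 17 counts in miR-19a and 13, 2 and 7 counts in miR-NC, which overlap (0.95 with filterByExpr, adjusted p = 0.0702).

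TLR3, the endosomal sensor of duplex RNA, had 18, 22 and 21 counts in miR-19a and 18, 21 and 22 counts in miR-NC. IRF9, the DNA-binding part of the STAT2 complex, had 42, 26 and 33 counts in miR-19a and 37, 31 and 25 counts in miR-NC. IFI27, a strongly interferon-induced mitochondrial protein, had 49, 46 and 31 counts in miR-19a and 48, 45 and 36 counts in miR-NC. For these 3 genes the groups overlapped, and filterByExpr gave no call (adjusted p = 0.881, 0.887 and 0.763). IFI44L had 2, 5 and 2 counts in miR-19a and 4, 8 and 8 counts in miR-NC, and IFITM1 had 4, 5 and 5 counts in miR-19a and 5, 4 and 7 counts in miR-NC. A difference in either was not detectable at this depth. IFITM1 exons also overlap those of IFITM2 on the same strand, and how shared reads were counted is not stated.

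The ligands of the pathway were present in both groups. On the FPKM scale IFNL1, an interferon lambda, averaged 23.7 ± 2.81 in miR-19a and 22.7 ± 0.31 in miR-NC, above interferon beta (IFNB1) at 2.503 ± 0.292 in miR-19a and 4.4 ± 0.25 in miR-NC (SD, n = 3 each). Of 5 tested interferon genes 2 fell and 0 rose (40% called, against 48.4% of all tested genes). IFNB1 had 2.42, 2.003 and 1.98 CPM in miR-19a and 3.49, 3.94 and 3.69 CPM in miR-NC, without overlap (-0.80, SE 0.21, edgeR adjusted p = 0.00109). IFNL1 had 19.2, 19.1 and 23.4 CPM in miR-19a and 19.8, 19.3 and 19.4 CPM in miR-NC, which overlap (0.08, SE 0.084, edgeR adjusted p = 0.458).

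IFNL2 (0.06, SE 0.13) and IFNL3 (-0.26, SE 0.13), which are near-identical and may share reads, did not pass either (edgeR adjusted p = 0.723 and 0.0924), though IFNL3 reached 0.0494 with limma on log2(FPKM + 1), the lowest of a range that reached 0.420. IFNE, an interferon of epithelia, had 1.93, 2.24 and 2.43 CPM in miR-19a and 2.59, 4.25 and 2.73 CPM in miR-NC. Its fall of -0.53 (SE 0.22, edgeR adjusted p = 0.0439) was lost with filterByExpr (0.0501), no filter (0.0651), DESeq2 (0.113) and limma (0.0799 and 0.0753). It was also lost without miR-NC replicate 2 (-0.27, edgeR adjusted p = 0.410) and without each of miR-19a replicates 1 (-0.45, 0.148), 2 (-0.54, 0.0832) and 3 (-0.61, 0.0526). IFNA1, IFNA2, IFNG and IFNW1 had 0 counts in all libraries, and IFNK had 2 counts in miR-NC replicate 2 and 0 elsewhere.

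In a wider list of receptors, STAT factors and their brakes 10 of 24 tested genes rose and 6 fell (median log2 fold change 0.04). That is 66.7% called, against 48.4% of all tested genes. IL10RB, the subunit that the interferon lambda receptor shares with the receptor of interleukin-10, had 41.2, 39.8 and 39.1 CPM in miR-19a and 22.5, 21.6 and 23.3 CPM in miR-NC. It rose without overlap (0.83, SE 0.068, edgeR adjusted p = 7.5e-17). The subunits of the interferon gamma receptor, IFNGR1 (0.53, SE 0.050) and IFNGR2 (0.55, SE 0.056), rose too. IFNLR1, the specific subunit of the lambda receptor, was scarce at 5.49 ± 0.902 CPM in miR-19a and 5.004 ± 0.347 CPM in miR-NC and did not pass (0.13, SE 0.16, edgeR adjusted p = 0.529).

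Among the genes that fell were STAT6, the factor of interleukin-4 signalling (-0.24, SE 0.046), and the phosphatase PTPN6 (-0.30, SE 0.079).

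**Figure D4:**
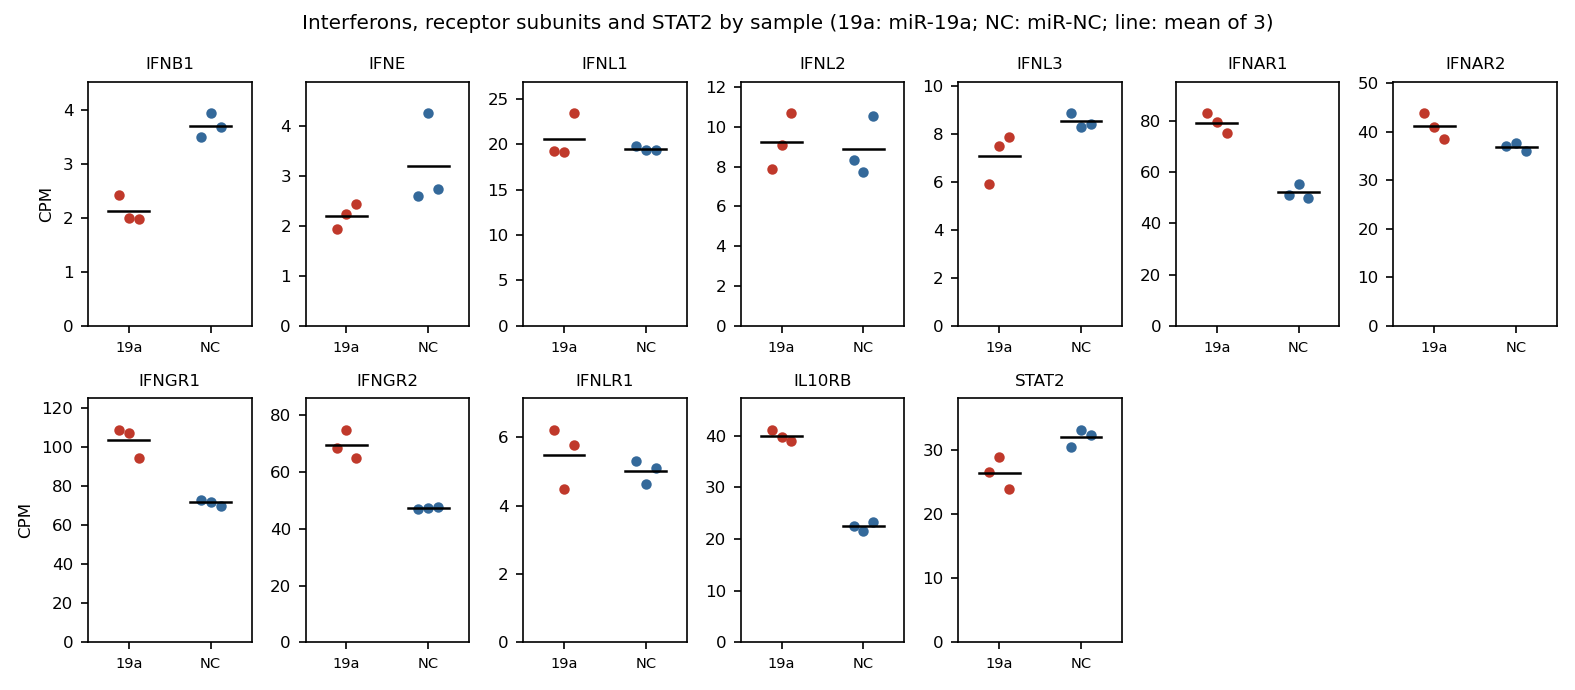
TMM-scaled CPM is plotted for interferon genes, receptor subunits and STAT2, with the 3 miR-19a samples left and the 3 miR-NC samples right in each panel and a line at the mean. IFNB1 and STAT2 sit lower in miR-19a, IFNAR1, IFNGR1, IFNGR2 and IL10RB sit higher, and IFNL1, IFNL2 and IFNLR1 overlap.

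Of 21 tested regulators of RNA sensing outside the 44 genes, 8 were higher and 5 lower (61.9% called, against 48.4% of all tested genes). TRIM25, a ubiquitin ligase of RIG-I, rose to 154 ± 0.241 CPM in miR-19a, against 132 ± 4.58 CPM in miR-NC (0.22, SE 0.042). TBKBP1, an adaptor of TBK1 (0.38, SE 0.094), and TOMM70, a mitochondrial receptor for MAVS signalling (0.15, SE 0.044), rose as well. The TOMM70 call ended without miR-19a replicate 1 (0.11, edgeR adjusted p = 0.0640, the highest of a range from 0.00121). PRKRA, or PACT, an activator of PKR with the 8mer shown, had 29.7, 31.5 and 31.2 CPM in miR-19a and 43.8, 44.9 and 45.3 CPM in miR-NC and fell (-0.54, SE 0.063, edgeR adjusted p = 4.5e-11). The helicase DDX3X (-0.19, SE 0.036) and the adaptor TRAF2 (-0.17, SE 0.053) were lower, TRAF2 not without miR-NC replicate 1 (-0.14, edgeR adjusted p = 0.0568, the highest of a range from 0.000122).

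Of 9 tested genes of DNA sensing 3 fell and 1 rose (44.4% called, against 48.4% of all tested genes). CGAS, the enzyme that detects cytosolic DNA, has the 8mer shown and had 6.84, 6.19 and 6.95 CPM in miR-19a and 11.7, 11.1 and 11.4 CPM in miR-NC (-0.78, SE 0.12, edgeR adjusted p = 1.3e-07). TREX1, a nuclease that clears such DNA, had 6.22, 5.71 and 6.61 CPM in miR-19a and 11.9, 11.6 and 13.2 CPM in miR-NC (-0.98, SE 0.12, edgeR adjusted p = 3.1e-10) and has no match. For both genes the groups did not overlap. SAMHD1, a nucleotide hydrolase (-0.24, SE 0.087, edgeR adjusted p = 0.0173), and DDX41, a helicase (0.12, SE 0.052, edgeR adjusted p = 0.0404), were nearer the threshold. The SAMHD1 call ended with DESeq2 (0.0592), limma (0.0529 and 0.0509) and without miR-19a replicate 2 (-0.21, edgeR adjusted p = 0.0852), miR-NC replicate 1 (-0.21, 0.0745) or miR-NC replicate 2 (-0.19, 0.0983). That of DDX41 ended with library totals (0.0797), DESeq2 (0.0917), limma (0.141 and 0.142), no filter (0.0556), without miR-19a replicate 2 (0.12, edgeR adjusted p = 0.0888) or 3 (0.10, 0.131) and without miR-NC replicate 1 (0.14, 0.0576) or 2 (0.08, 0.255).

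In a list of Toll-like receptors and their signalling genes 9 of 12 tested genes rose and 0 fell (median log2 fold change 0.28). That is 75% called, against 48.4% of all tested genes. MYD88, the main adaptor of these receptors, did not pass (-0.14, SE 0.060, edgeR adjusted p = 0.0514). TLR6, a receptor of the cell surface and the single Toll-like receptor of this list over the level filter, had 24.99, 26.3 and 26.9 CPM in miR-19a and 16.1, 16.7 and 15.96 CPM in miR-NC (0.68, SE 0.080, edgeR adjusted p = 5.0e-11). IRAK2, a kinase-like relay of these receptors (0.44, SE 0.049), and CTSL, a lysosomal protease that processes endosomal receptors (0.45, SE 0.036), rose without overlap. TLR7, TLR8 and TLR9, endosomal receptors that need UNC93B1, had at most 2 counts in any library.

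Among 38 tested interferon-stimulated genes outside the 44, 13 rose and 6 fell (50% called, against 48.4% of all tested genes). HELZ2, a helicase-like coactivator (0.57, SE 0.059), and TRIM21, a cytosolic antibody receptor (0.41, SE 0.067), were among those higher. HERC6 (-0.57, SE 0.083), the chemokine CXCL11 (-0.72, SE 0.16) and LY6E (-0.17, SE 0.044) were lower.

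In class I antigen presentation 7 of 17 tested genes rose and 2 fell (52.9% called, against 48.4% of all tested genes). The chaperones of peptide loading CALR (0.57, SE 0.035) and PDIA3 (0.21, SE 0.036) and the trimming peptidase ERAP1 (0.36, SE 0.063) were higher. PDIA3 holds an 8mer match to the miR-19a seed in the 3′ UTR used, and ERAP1 a 7mer-A1. HLA-E (-0.22, SE 0.049), whose reads may be shared with other HLA genes, and the proteasome activator subunit PSME1 (-0.26, SE 0.043) were lower. All calls in these lists are edgeR adjusted p under 0.05, with groups that did not overlap for every named gene but TRAF2 and SAMHD1, and the lists were described by counts without a test of the list.

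**Figure D5:**
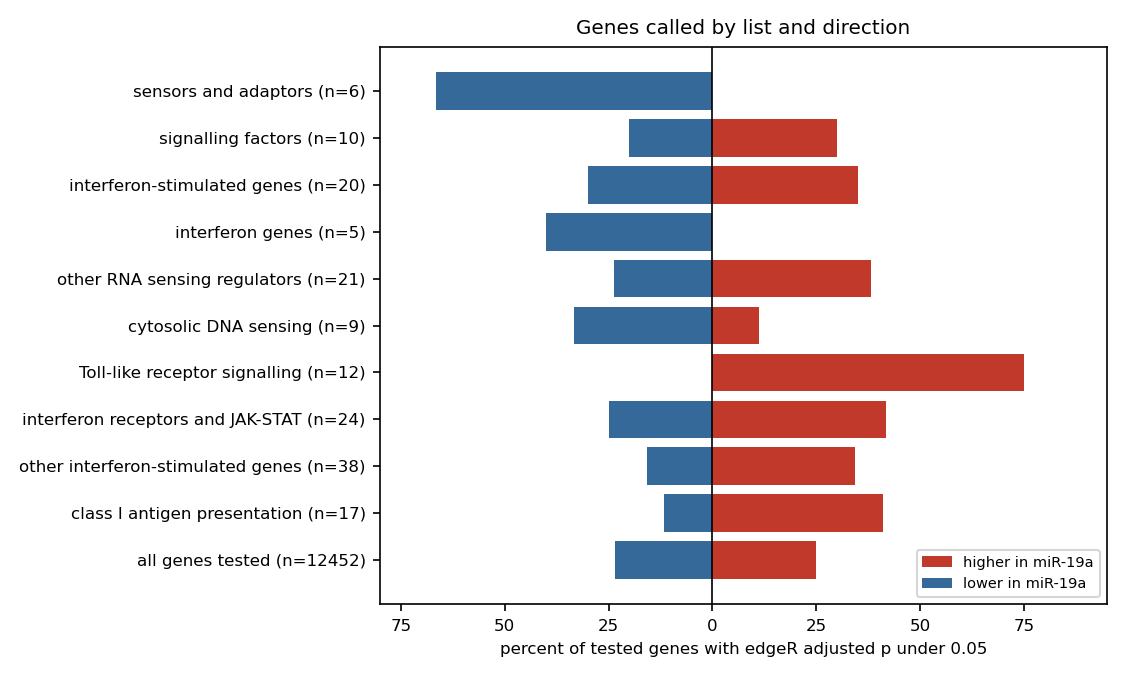
Bars give the percent of tested genes of each list that were higher (right) or lower (left) in miR-19a at an edgeR adjusted p under 0.05, with the number tested beside the name. Sensors and adaptors and interferon genes have bars to the left only, Toll-like receptor signalling to the right only, and all tested genes stand at 24.9% and 23.5%.

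Promoter sequences are shown because interferon-stimulated genes are held to share the interferon-stimulated response element, at which the complex of STAT2 and IRF9 binds. RefSeq promoters (GRCh38.p14, 250 bases before to 50 after the start) matched 32 members by symbol. They were searched for GAAANNGAAA on both strands, read as TTTCNNTTTC on the reverse, and overlapping matches were allowed. The motif was found in 16 of 20 promoters of interferon-stimulated members, in 2 of 5 of sensors and adaptors and in 0 of 7 of signalling factors. It was found in 3.65% of 27305 promoters of the same length. The lines show matches upstream of the start in capitals, from genes that rose (ISG15, IFITM3, OAS3, IFI44), fell (IFI6, IFIH1) or did not pass (IFIT1).
ISG15: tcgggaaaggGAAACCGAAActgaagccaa
IFITM3: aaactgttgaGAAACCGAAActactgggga
OAS3: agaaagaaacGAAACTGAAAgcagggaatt
IFI44: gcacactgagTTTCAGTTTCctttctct
IFI6: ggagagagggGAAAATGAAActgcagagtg
IFIH1: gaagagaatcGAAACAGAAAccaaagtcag
IFIT1: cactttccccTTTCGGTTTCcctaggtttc

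These windows lie at chr1:1013380-1013409 (ISG15, plus), chr11:320876-320905 (IFITM3, minus), chr12:112938321-112938350 (OAS3, plus), chr1:78649761-78649788 (IFI44, plus), chr1:27672288-27672317 (IFI6, minus), chr2:162318686-162318715 (IFIH1, minus) and chr10:89392510-89392539 (IFIT1, plus). Among interferon-stimulated members with a promoter in the table, the motif was present in 5 of 6 that rose, 2 of 3 that fell, 4 of 6 that did not pass and 5 of 5 under the level filter. ISG15 and IFITM3 carry the same letters, GAAACCGAAA, with fold changes of 0.14 and 0.57 on the log2 scale. RSAD2, which rose most, had no match in its window, nor had OAS1, which fell. The letters of this motif thus stood before genes of each direction, and no match says only that they are not in this window.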

How the data were processed

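The authors deposited gene counts and FPKM for 6 poly(A) libraries read as Illumina HiSeq pairs of 150 nt, per the labels' protocols and the file headers. The submitters' processing notes name bcl2fastq 2.17.1.14. The aligner, the counter, its annotation, any use of strand and the build were not given in these sources. Deposited counts are whole numbers per gene. The deposited FPKM values served for levels, for the filter and for the limma alternatives.

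Groups and replicate numbers were taken from the sample titles. Of the 57905 identifiers, 51996 were given a symbol from a table of gene names and 342 from GENCODE 29, and 5567 had none. Of 253 entries in the gene lists 248 matched an identifier. The 12452 genes with a mean of at least 1 FPKM were tested with edgeR 4.0.16 in R 4.3.3 (TMM factors, quasi-likelihood test, 3 miR-19a against 3 miR-NC samples), with Benjamini-Hochberg adjustment over all of them and a threshold of 0.05. The standard error was computed as the absolute log2 fold change divided by the root of F, and 95% intervals used 1.96 standard errors. CPM used the totals of the tested genes times their TMM factors. The common biological coefficient of variation was 0.0352, and replicates differed by a chi-square per gene of 1.60 to 4.22, against 27.2 to 30.9 across groups, so no library was a copy of another. The method was tested on counts simulated with the common dispersion and with 12252 of 12452 genes unchanged. That setting differs from these data, where 48.4% of tested genes were called. It also says nothing on variation between separate cultures.

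Alternatives were median-of-ratios factors, library totals alone, DESeq2 1.42.0 (counts), limma 3.58.1 on log2(FPKM + 1) and log2(FPKM + 0.1), edgeR's filterByExpr, no filter, a replicate block and leaving out each sample. Seed matches were searched in the 3′ UTR of the transcript with the longest coding sequence of each gene, from GENCODE 29 on GRCh38. The genes named are all 44 members, every interferon gene and, of each further list, up to 3 higher and 3 lower genes with the smallest adjusted p, except a few that are not reported here. IFNLR1, MYD88, TLR7, TLR8, TLR9 and the genes overlapping members were named after their values were seen. Members and lists were chosen with earlier results of these data known.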

Additional observations from a re-analysis of the deposited data

How the results depend on the processing

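Of the 22 called members, 17 kept their direction and their call under all 14 alternatives, and the 5 that lost the call under some (DHX58, IFNAR2, ISG15, OASL, TAP1) are given with those values in the report. The number of members higher in miR-19a ranged over the alternatives from 7 to 11 and the number lower from 10 to 14, and over all tested genes from 2566 to 3438 higher and 2485 to 3182 lower. Leaving out 1 sample at a time gave 0 to 1 sensors and adaptors higher, the 1 being MAVS without miR-NC replicate 2. Changes near 0 turned sign: IFIT1 to -0.0049 with library totals and to -0.0047 and -0.0048 with limma, and USP18 to 0.0 with filterByExpr and 0.0049 with no filter. Over all 14 alternatives, the log2 fold change ran from -0.0278 to 0.0503 for IFIT1 and from -0.0759 to 0.1085 for USP18. For IRF7 it ran from -0.0966 to 0.0432 and for TYK2 from -0.0739 to 0.0063. For IFNL1 it ran from -0.0255 to 0.1295 and for IFNL2 from -0.0611 to 0.2023. The cause was not tested. No pairing by replicate number was visible, with deviations of same-numbered samples correlated at 0.008, 0.001 and -0.031. These values cannot tell whether same-numbered samples were handled together. With the replicate block there were 3083 genes higher in miR-19a and 2903 genes lower in miR-19a, with 10 members higher and 12 lower, and no call of a named gene changed. Genes with few counts, such as IFI44L and IFITM1, allow no statement on direction at this depth.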
